A study of Mus musculus with 24 samples.

Results

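The 8 genes described here encode chemokine receptors of T helper cells: Ccr2, Ccr4, Ccr6, Ccr8, Cxcr3, Cxcr4, Cxcr5 and Cxcr6. They were chosen by name, as 8 of the 17871 genes on the arrays, and every probe of the deposited table with one of these symbols was taken. Cxcr5 stands in the table under its older symbol Blr1. The genes have 11 probes. Of these, 9 probes, which stand for 7 of the 8 genes, were detected on at least 1 array. A probe counted as detected on an array when its detection p-value, computed by the array software against negative control probes, was at most 0.02.

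RNA of mouse CD4+ T cells was measured on 24 Illumina MouseRef-8 v2 arrays in 4 cell states and 2 genotypes, with 3 arrays (replicates A, B and C) in each of the 8 groups. WT cells came from wild-type mice. BAF180-deficient cells came from mice with a floxed exon of Pbrm1, the gene of BAF180, that is removed by Cre under the Cd4 promoter, hence late in thymocyte development and in both CD4 and CD8 T cells. The mice were 4 to 6 weeks old and are Balb/c by the labels, whereas the methods describe a mixed B6-129 background. Resting Naive cells were CD4+CD62L+ cells isolated from spleen and lymph node to 95% purity, and stimulated Naive cells had then spent 24 h on plates coated with anti-CD3 (1 µg/ml) and anti-CD28 (2 µg/ml). Resting Th2 cells had been grown from Naive cells on the same coating with IL-4 (10 ng/ml), antibody to IFN-gamma (10 µg/ml) and IL-2 (100 U/ml). Stimulated Th2 cells had received PMA (50 ng/ml) and ionomycin (500 ng/ml), which bypass the T cell receptor, for 1.5 h. Stimulated Naive and stimulated Th2 cells therefore differ in stimulus and in time as well as in cell type.

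Chemokine receptors are G protein-coupled receptors that steer a cell along a gradient of small secreted proteins, the chemokines. Naive T cells recirculate through lymph nodes, and after activation a T helper cell exchanges its receptors, so that each effector type reaches different tissues. Cxcr3 is known for T helper cells of type 1, Ccr4 and Ccr8 for Th2 and regulatory T cells, Ccr6 for Th17 cells and Cxcr5 for follicular helper cells. BAF180 is a subunit of PBAF, a chromatin remodelling complex of the SWI/SNF family, and the comparison of genotypes asks which genes depend on it.

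Pbrm1 was lower in BAF180-deficient cells in every state. In resting Th2 cells its log2 levels were 9.06, 9.06 and 8.88 on the WT arrays and 7.16, 7.23 and 7.02 on the BAF180-deficient arrays, and the genotypes did not overlap in any of the 4 states. Cd4 was detected on all 24 arrays. The Th2 cytokine Il4 lay between 6.33 and 7.22 in resting Naive cells and between 13.97 and 14.20 in stimulated Th2 cells. Markers of other cells were also present. Lyz2, a marker of myeloid cells, lay between 8.85 and 11.48 in resting Naive cells and was detected on no array of the other states. The summed linear level of 7 B cell markers was 730 to 1720 in resting Naive, 210 to 334 in stimulated Naive, 141 to 613 in resting Th2 and 136 to 352 in stimulated Th2 cells. Marker sums here and below also count undetected markers, at background level, so low sums are in part background. Of the B cell markers, 3 were detected on no array of either stimulated Th2 group. Within both Th2 states and both genotypes, replicate C had the highest sum. Cd69, an early activation gene, lay between 11.29 and 12.10 in resting Naive cells, above the 9.39 to 10.67 of both stimulated states. In bulk samples fewer cells of one type and less RNA per cell cannot be told apart.

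The promoters of Cxcr4, Ccr6, Cxcr3 and Ccr8 are shown because these 4 genes changed most between cell states. Cxcr4, Ccr6 and Cxcr3 fell together when Naive cells were activated while Ccr8 rose, and Cxcr3 and Cxcr4 then moved in opposite directions when Th2 cells were restimulated. Each sequence is the 250 bases before an annotated start, from RefSeq on mouse build GRCm38.p6, 5′ to 3′ on the strand of the gene. Ccr6 has 2 annotated starts. Capitals mark matches, on either strand, to motifs of transcription factors that act downstream of T cell activation or in T helper differentiation, and to the TATA box.
Cxcr4, chr1:128592300-128592549, minus strand: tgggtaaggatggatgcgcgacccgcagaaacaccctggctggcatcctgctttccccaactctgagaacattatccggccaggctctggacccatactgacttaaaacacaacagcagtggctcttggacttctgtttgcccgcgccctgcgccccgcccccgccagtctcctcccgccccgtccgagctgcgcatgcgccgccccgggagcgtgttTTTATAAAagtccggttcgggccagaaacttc
Ccr6 first start, chr17:8235793-8236042, plus strand: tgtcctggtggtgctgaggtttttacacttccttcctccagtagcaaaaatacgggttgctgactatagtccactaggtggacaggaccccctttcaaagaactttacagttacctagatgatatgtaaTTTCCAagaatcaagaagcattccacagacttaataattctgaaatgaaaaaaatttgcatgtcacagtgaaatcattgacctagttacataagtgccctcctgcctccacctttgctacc
Ccr6 second start, chr17:8242276-8242525, plus strand: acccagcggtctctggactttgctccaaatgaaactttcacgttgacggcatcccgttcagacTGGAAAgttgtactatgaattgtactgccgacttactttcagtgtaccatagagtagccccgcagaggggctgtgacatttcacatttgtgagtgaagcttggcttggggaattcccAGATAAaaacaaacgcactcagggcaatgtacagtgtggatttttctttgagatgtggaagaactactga
Cxcr3, chrX:101734148-101734397, minus strand: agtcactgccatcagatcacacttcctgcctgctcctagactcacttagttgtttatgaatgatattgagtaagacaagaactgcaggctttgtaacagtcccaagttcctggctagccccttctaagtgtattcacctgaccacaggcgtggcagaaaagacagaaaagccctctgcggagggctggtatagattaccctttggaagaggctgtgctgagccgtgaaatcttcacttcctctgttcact
Ccr8, chr9:120091883-120092132, plus strand: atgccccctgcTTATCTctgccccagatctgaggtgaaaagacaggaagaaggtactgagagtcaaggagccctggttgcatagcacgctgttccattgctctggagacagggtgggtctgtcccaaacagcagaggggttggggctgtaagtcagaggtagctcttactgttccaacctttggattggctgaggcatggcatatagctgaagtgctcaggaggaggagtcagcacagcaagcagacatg

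The 9 motifs were searched on both strands in the same window of 32851 RefSeq promoters. NFAT, searched as TTTCCA, matched in 18.6% of all promoters. GATA, searched as AGATAA, matched in 9.99%. The TATA box, TATAAA, was found in 12.4%. AP-1 was searched as TGANTCA and found in 6.75%. STAT6, searched as TTC and GAA with 4 bases between them, was found in 5.85%. FOXO (GTAAACA) matched in 3.17%. KLF (CCACACCC) matched in 3.2%. The T-box letters AGGTGTGA were found in 1.12% and those of EGR, GCGTGGGCG, in 0.536%. Promoters of 7 members were in the table. Ccr6 held an NFAT match 121 bases before its first start, and an NFAT match at 187 and a GATA match at 70 bases before its second. Ccr8 held a GATA match at 239 bases. In the Cxcr4 promoter the TATA box letters matched on both strands and overlapped, 32 and 30 bases before the start. Among promoters not shown, that of Ccr4 held an AP-1 match at 143 bases, that of Cxcr6 an NFAT match at 211 bases, and that of Ccr2 an NFAT match at 192 and a GATA match at 97 bases. The Cxcr3 window held none of the 9 strings of letters. The Cxcr4 promoter had 19 CpG dinucleotides and 61.2% G and C, against 1 to 7 CpG in the promoters of the other 6 members and medians of 6 CpG and 52.4% over all promoters. These matches are descriptions of sequence and say nothing about binding.

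Levels below are normalized log2 intensities, each from the brightest detected probe of a gene, and levels of different probes cannot be compared with each other. Differences are given on the log2 scale with the standard error (SE) of a limma model fitted to all 24 arrays, n = 3 arrays per group. A difference between states was called at a Benjamini-Hochberg adjusted p below 0.05 over 14246 probes. A genotype difference was called by the 4 criteria of the study's methods, namely a Z-ratio (a probe's difference in units of the SD that differences show over the whole array) beyond 1.5 in size, unadjusted p under 0.05, FDR under 0.3 and a positive mean signal. The limits are those of the study, but the differences, p and FDR came from the limma model and not from Z-scores. The calls are therefore not the study's own. Every deposited intensity was positive (lowest 25.8), so the last criterion excluded no probe. Where a probe was detected on no array of a group, its level there is only a bound, and the fold is given as at least N-fold.

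Activation of Naive cells lowered 3 receptors and raised 2 in either genotype. Cxcr4, Ccr6 and Cxcr3 were lower and Ccr8 and Ccr4 were higher in stimulated than in resting Naive cells, of the 7 members tested. Over all probes 23.6% were called higher and 20% lower in WT cells, and 22.3% and 19.3% in BAF180-deficient cells, so that calls were frequent in general. The median difference of the 7 members was -0.38 in WT and -0.26 in BAF180-deficient cells, against 0.01 and 0.02 over all probes.

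Resting Th2 cells differed from resting Naive cells in 6 of the 7 members in either genotype. Ccr6, Cxcr5 and Cxcr3 were lower, and Ccr8, Ccr4 and Cxcr6 were higher. Of all probes 18.4% were higher and 16% lower in WT cells, and 18.8% and 15.9% in BAF180-deficient cells. Both comparisons share the resting Naive arrays, on which the markers of B cells and myeloid cells were highest. When only the 6 WT arrays of this comparison were fitted, 3 members were called (Ccr4, Ccr6 and Cxcr5).

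Restimulation of Th2 cells raised Cxcr3 and Ccr8 and lowered Cxcr4 in either genotype. In addition Ccr4 was called lower in WT cells and Ccr6 in BAF180-deficient cells, which gives 4 called members in each. Over all probes 13% were higher and 14.3% lower in WT cells, and 12% and 13.8% in BAF180-deficient cells. Without WT replicate C of resting Th2 cells, or without WT replicate A of stimulated Th2 cells, 2 WT members remained called (Ccr8 and Cxcr3), and without BAF180-deficient replicate C of resting Th2 cells 2 remained in that genotype (Cxcr3 and Cxcr4).

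**Figure D1:**
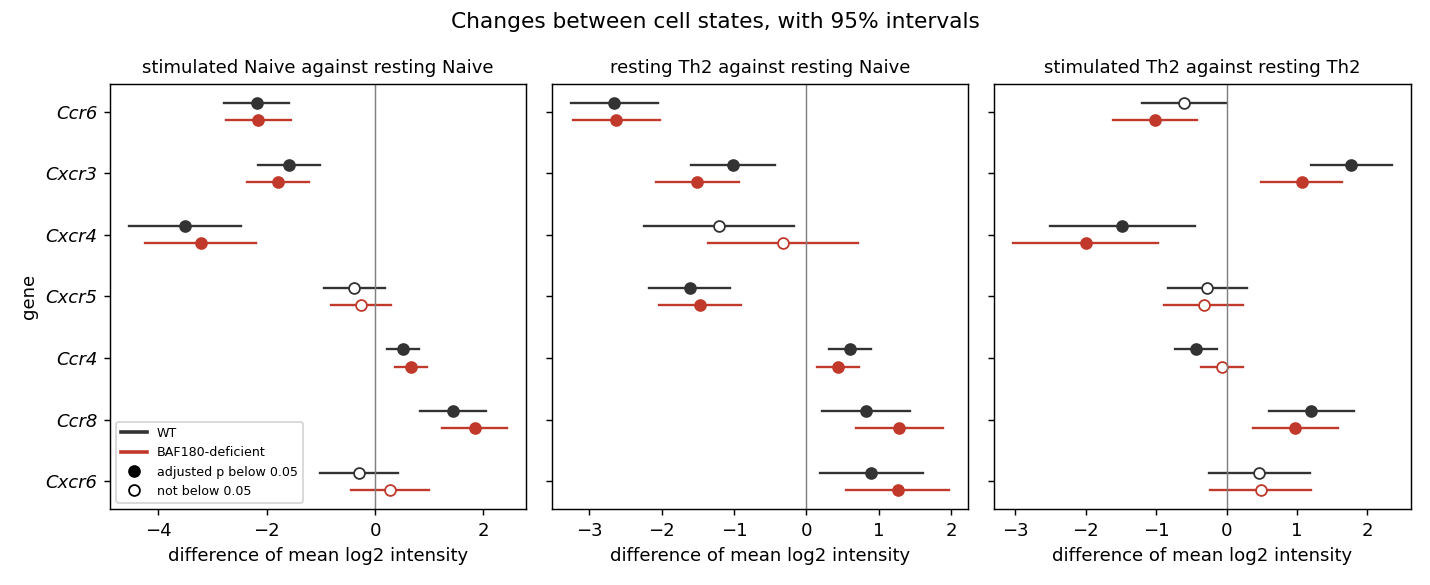
Differences of mean log2 intensity between cell states (x axes) for 7 receptors (y axis), WT in black and BAF180-deficient in red, with 95% confidence intervals from the limma model and filled points at an adjusted p below 0.05. Ccr6, Cxcr3 and Cxcr4 lie left of 0 and Ccr8 right of 0 for Naive activation, whereas Cxcr3 and Cxcr4 lie on opposite sides for Th2 restimulation. The probe was not detected for Ccr4 in resting Naive and WT stimulated Th2 cells and for Ccr6 in stimulated Th2 cells. Points that involve these groups are differences of the fitted means, are not exact, and are not the bounds given as at least N-fold.

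Cxcr4, the receptor for Cxcl12, holds lymphocytes in bone marrow and lymphoid tissue. In resting Naive cells its log2 level was 8.55, 7.98 and 7.80 on WT arrays A, B and C and 7.68, 8.51 and 8.08 on BAF180-deficient arrays. After activation it was 4.42, 4.21 and 5.16 in WT and 5.19, 4.80 and 4.61 in BAF180-deficient cells, and the probe was detected on 1 of the 3 WT arrays. No array of the stimulated cells came within 2 log2 units of a resting one. The difference was -3.52 (SE 0.50, adjusted p = 7.17e-06) in WT and -3.22 (SE 0.50, adjusted p = 2.18e-05) in BAF180-deficient cells, which is 11.4-fold and 9.34-fold lower. In Th2 cells Cxcr4 was again high at rest, at 7.09, 5.69 and 7.95 in WT and 7.62, 7.39 and 8.29 in BAF180-deficient cells. After restimulation it was 4.61, 5.30 and 6.36 in WT and 5.51, 5.12 and 6.68 in BAF180-deficient cells. Replicate C was the highest of its group in all 4 Th2 groups, and in WT the restimulated array C lay above the resting array B.

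The fall of Cxcr4 upon restimulation was 2.79-fold in WT (-1.48, SE 0.50, adjusted p = 0.0295) and 4.00-fold in BAF180-deficient Th2 cells (-2.0, SE 0.50, adjusted p = 0.00445). The WT call was lost in 4 of the 6 fits that left out 1 array, with -0.96 (adjusted p = 0.198) without replicate C and -1.39 (0.0853) without replicate A of resting Th2 cells, and -1.07 (0.171) without replicate A and -1.42 (0.0806) without replicate B of stimulated Th2 cells. It was also lost with Z-score normalization (adjusted p = 0.0684), without the detection filter (0.0766) and when only the 2 groups were fitted (0.144). Resting Th2 and resting Naive cells did not differ in Cxcr4 by the test. The difference was -1.20 in WT (adjusted p = 0.0656) and -0.32 in BAF180-deficient cells (95% interval -1.35 to 0.71). With the replicate letter as a block the WT difference passed (adjusted p = 0.0324), as it did without WT replicate C of resting Th2 cells (-1.72, adjusted p = 0.0142), without background correction (0.0455) and with an offset of 50 (0.0488). In order of level, resting Naive cells of both genotypes came first, resting Th2 cells next, then stimulated Th2 cells, and stimulated Naive cells last, and the values of neighbouring groups overlapped at each step of this order.

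Ccr6, the receptor for Ccl20, marks Th17 cells and is also carried by B cells. On WT arrays A, B and C it lay at 7.23, 7.56 and 8.12 in resting Naive, 5.35, 5.36 and 5.65 in stimulated Naive, 4.41, 4.59 and 5.96 in resting Th2 and 4.26, 4.36 and 4.53 in stimulated Th2 cells. On BAF180-deficient arrays it lay at 7.79, 8.23 and 8.09, then 5.88, 5.74 and 6.01, then 5.41, 5.08 and 5.75, and finally 4.41, 4.37 and 4.40 in the same order. Ccr6 was thus highest in resting Naive cells, with no overlap with any other state, and was detected on no array of stimulated Th2 cells and on 1 of 3 WT arrays of resting Th2 cells. Neighbouring groups below resting Naive cells overlapped, apart from stimulated Naive cells of the 2 genotypes and, by less than rounding at 4.41, WT resting Th2 and BAF180-deficient stimulated Th2 cells. Within WT, resting and stimulated Th2 cells overlapped.

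Activation lowered Ccr6 4.54-fold in WT (-2.18, SE 0.29, adjusted p = 3.06e-06) and 4.47-fold in BAF180-deficient Naive cells (-2.16, SE 0.29, adjusted p = 3.76e-06). In resting Th2 cells it was 6.29-fold (-2.65, adjusted p = 4.43e-07) and 6.17-fold (-2.63, adjusted p = 5.02e-07) below resting Naive cells. The second probe gave the same calls in these comparisons, with differences from -2.40 to -1.65. From resting to stimulated Th2 cells Ccr6 fell at least 1.68-fold in BAF180-deficient cells (means 5.41 and 4.39, adjusted p = 0.0112). That call was lost without replicate C of resting Th2 cells (adjusted p = 0.0578), with Z-score normalization (0.0547) and with an offset of 50 (0.0608), and the second probe did not give it (adjusted p = 0.549). In WT cells the difference was -0.60 (adjusted p = 0.138). It passed with genotype and letter as the block (adjusted p = 0.0432) and without replicate A of resting Th2 cells (-0.89, adjusted p = 0.0335), and was -0.11 without replicate C of those cells.

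Cxcr5, the receptor for Cxcl13, guides follicular helper T cells and B cells into B cell follicles. It lay at 6.47, 6.62 and 6.65 in WT and 6.52, 6.41 and 6.94 in BAF180-deficient resting Naive cells, and at 6.56, 6.18 and 5.85 and 6.96, 5.98 and 6.14 after activation. In resting Th2 cells it lay at 4.84, 4.77 and 5.30 and at 4.84, 4.88 and 5.75, and in stimulated Th2 cells at 5.02, 4.46 and 4.61 and at 4.83, 4.54 and 5.12. On this brightest probe the levels formed 2 sets that did not overlap, Naive cells above and Th2 cells below. Within each set neighbouring groups overlapped. Resting Th2 cells were 3.05-fold below resting Naive cells in WT (-1.61, SE 0.27, adjusted p = 9.57e-05) and 2.76-fold below in BAF180-deficient cells (-1.47, SE 0.27, adjusted p = 0.000257). Of the 2 other Cxcr5 probes 1 was detected on no array. The other gave -1.24 in WT (adjusted p = 0.00206) and -0.47 in BAF180-deficient cells (adjusted p = 0.220, and 0.0426 with the letter as a block). On it Naive and Th2 cells overlapped, with BAF180-deficient resting Th2 replicate C at 5.96 and resting Naive cells between 5.46 and 6.62. Activation of Naive cells moved Cxcr5 by -0.38 in WT (95% interval -0.95 to 0.18) and -0.26 in BAF180-deficient cells (-0.82 to 0.30), and neither passed. Upon restimulation of Th2 cells the difference was -0.27 and -0.33, and on the other probe in BAF180-deficient cells -0.75 (adjusted p = 0.0595, and 0.00296 with the letter as a block).

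B cells carry Ccr6, Cxcr5 and Cxcr4, and B cell markers were measured on the same arrays. The summed B cell marker level of WT replicates A, B and C was 889, 815 and 1270 in resting Naive and 190, 141 and 474 in resting Th2 cells. In BAF180-deficient cells it was 730, 889 and 1720, and 208, 184 and 613. Cd79b, a chain of the B cell receptor, lay at 5.88, 4.74 and 7.88 in WT resting Th2 cells, where Ccr6, Cxcr5 and Cxcr4 were also highest in replicate C. In WT resting Naive cells replicate C had the highest sum, the highest Ccr6 and Cxcr5 and the lowest Cxcr4. In BAF180-deficient resting Naive cells replicate C had the highest sum and Cxcr5, and replicate B the highest Ccr6 and Cxcr4. Across states, stimulated Naive arrays had sums of 210 to 334 with Cxcr4 at 5.19 or lower. Replicates A and B of resting Th2 cells had sums of 141 to 208 with Cxcr4 between 5.69 and 7.62. Of the 7 markers, 5 in WT and 6 in BAF180-deficient cells were detected on all 3 arrays of resting Naive cells, and 1 and 2 on all 3 of resting Th2 cells. Ms4a1, the gene of CD20, was detected on 1 of the 24 arrays, a BAF180-deficient resting Naive one. The part of B cells in the levels of Ccr6, Cxcr5 and Cxcr4 was not tested.

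**Figure D2:**
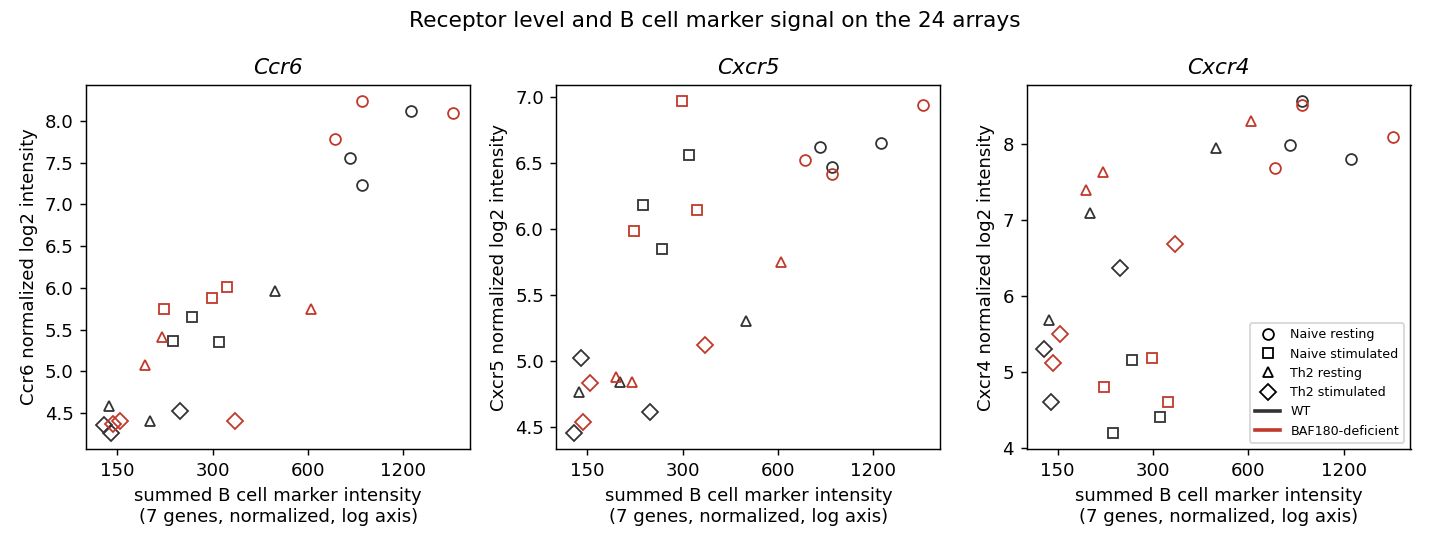
Normalized log2 intensity of Ccr6, Cxcr5 and Cxcr4 (y axes) against the summed intensity of 7 B cell markers (x axis, logarithmic) on each of the 24 arrays, with the cell state by symbol and the genotype by colour. Resting Naive arrays, with marker sums of 730 to 1720, hold the highest Ccr6 levels, while stimulated Naive arrays, with sums of 210 to 334, keep Cxcr5 between 5.85 and 6.96 and have Cxcr4 at 5.19 or lower.

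Cxcr3, the receptor for the interferon-induced chemokines Cxcl9, Cxcl10 and Cxcl11, takes T cells into inflamed tissue. In resting Naive cells it lay at 6.85, 7.04 and 7.22 in WT and 7.41, 7.43 and 7.13 in BAF180-deficient cells. After activation it was 5.78, 5.39 and 5.18 in WT and 5.80, 5.48 and 5.30 in BAF180-deficient cells, below every resting array. The fall was 3.00-fold in WT (-1.59, SE 0.28, adjusted p = 8.29e-05) and 3.47-fold in BAF180-deficient cells (-1.80, SE 0.28, adjusted p = 2.13e-05). Resting Th2 cells had Cxcr3 at 6.12, 5.24 and 6.71 in WT and 6.08, 5.42 and 5.96 in BAF180-deficient cells. These cells were 2.02-fold (-1.01, SE 0.28, adjusted p = 0.00700) and 2.84-fold (-1.50, SE 0.28, adjusted p = 0.000248) below resting Naive cells, and the WT call was lost without replicate B of resting Th2 cells (-0.62, adjusted p = 0.0617), with Z-score normalization (0.0732) and when only the 2 groups compared were fitted (0.0814).

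Restimulated Th2 cells held Cxcr3 at 7.97, 7.40 and 8.01 in WT and at 6.84, 7.12 and 6.70 in BAF180-deficient cells. Every restimulated array lay above every resting Th2 array of its genotype after the 1.5 h of PMA and ionomycin. The rise was 3.42-fold in WT (1.77, SE 0.28, adjusted p = 4.69e-05) and 2.09-fold in BAF180-deficient cells (1.07, SE 0.28, adjusted p = 0.00612), and both calls held in each of the 6 fits that left out 1 array. In order of level WT stimulated Th2 cells came first, then resting Naive cells, BAF180-deficient stimulated Th2 cells, resting Th2 cells and stimulated Naive cells, with overlap at each step. Over the same comparison the summed level of the 3 Th1 markers was 57.7 to 87.3 in resting and 201 to 386 in stimulated Th2 cells. Of these markers 0 were detected on all 3 arrays of either resting Th2 group, and 1 in each stimulated Th2 group. The Th1 sum was 68.2 to 90.5 in resting and 176 to 236 in stimulated Naive cells, where Cxcr3 was lower. The sum of the 5 Th2 markers was 1250 to 2440 in resting and 18700 to 21100 in stimulated Th2 cells.

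Cxcr6, the receptor for the membrane-bound chemokine Cxcl16, is carried by activated and tissue-resident T cells. It lay at 4.96, 5.38 and 5.02 in WT and 5.09, 4.97 and 4.34 in BAF180-deficient resting Naive cells, and at 4.69, 5.0 and 4.77 and 4.94, 5.39 and 4.89 after activation. In resting Th2 cells it was 6.63, 5.38 and 6.04 in WT and 6.63, 6.19 and 5.35 in BAF180-deficient cells, and in stimulated Th2 cells 6.91, 6.17 and 6.38 and 7.12, 6.66 and 5.84. The Th2 groups thus came above the Naive groups in the order of means. Neighbours in that order overlapped, except WT resting Th2 and WT resting Naive cells, which both had a replicate at 5.38. BAF180-deficient replicate C of resting Th2 cells, at 5.35, lay below the highest Naive arrays. Resting Th2 cells were 1.86-fold above resting Naive cells in WT (0.90, SE 0.34, adjusted p = 0.0485) and 2.39-fold above in BAF180-deficient cells (1.26, SE 0.34, adjusted p = 0.00727). The WT call was lost in 5 of the 6 fits that left out 1 array, every one but that without replicate B of resting Th2 cells, with adjusted p from 0.0518 to 0.246. It was also lost without background correction (0.0676), with an offset of 50 (0.0821), without the detection filter (0.102) and when only the 2 groups were fitted (0.0803), each as an adjusted p. The BAF180-deficient call was lost without replicate A of resting Th2 cells (adjusted p = 0.0525). Restimulation gave 0.47 in WT (95% interval -0.25 to 1.18) and 0.49 in BAF180-deficient cells (-0.23 to 1.20), and Naive activation -0.30 (-1.02 to 0.42) and 0.27 (-0.44 to 0.99), none of which passed.

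Ccr8, the receptor for Ccl1, is a receptor of Th2 cells and regulatory T cells. It lay at 6.32, 6.10 and 5.26 in WT and 5.41, 5.86 and 5.44 in BAF180-deficient resting Naive cells, and at 7.66, 7.12 and 7.21 and 8.09, 7.33 and 6.79 after activation. Resting Th2 cells had 6.73, 6.94 and 6.49 in WT and 7.25, 6.70 and 6.59 in BAF180-deficient cells. Restimulated Th2 cells had the highest mean levels, with 7.56, 8.15 and 8.06 in WT and 7.94, 7.73 and 7.80 in BAF180-deficient cells. Resting Naive cells were lowest, with no overlap with the next group, and every other step in the order had overlap.

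The rise of Ccr8 upon activation of Naive cells was 2.71-fold in WT (1.44, SE 0.29, adjusted p = 0.000374) and 3.58-fold in BAF180-deficient cells (1.84, SE 0.29, adjusted p = 2.88e-05). Resting Th2 cells were 1.77-fold (0.82, SE 0.29, adjusted p = 0.0321) and 2.43-fold (1.28, SE 0.29, adjusted p = 0.00169) above resting Naive cells. The WT call was lost without replicate C of resting Naive cells (0.51, adjusted p = 0.186) and without replicate A (0.82, 0.0724) or B (0.71, 0.108) of resting Th2 cells. It was also lost without background correction (adjusted p = 0.0504), with an offset of 50 (0.0664), without the detection filter (0.0683) and when only the 2 groups were fitted (0.0811). Restimulation raised Ccr8 2.30-fold in WT (1.20, adjusted p = 0.00320) and 1.97-fold in BAF180-deficient Th2 cells (0.97, adjusted p = 0.0156). The second of these calls was lost without replicate B (0.90, adjusted p = 0.0612) or C (0.85, 0.0654) of resting Th2 cells or replicate A of stimulated Th2 cells (0.92, 0.0558). All 5 markers of regulatory T cells were detected in every group. Their sums were 1130 to 2140 in resting Naive, 1250 to 2050 in stimulated Naive, 1910 to 3410 in resting Th2 and 1460 to 2090 in stimulated Th2 cells. The part of regulatory T cells in Ccr8 was not tested.

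Ccr4, the receptor for Ccl17 and Ccl22, takes Th2 and regulatory T cells to skin and lung. Its probe was dim, with all 24 levels between 4.25 and 5.19, and it was detected on no array of resting Naive cells. Activated Naive cells had 5.09, 4.95 and 4.71 in WT and 5.19, 5.08 and 4.65 in BAF180-deficient cells, and resting Th2 cells had 4.94, 4.91 and 5.16 and 4.77, 4.64 and 4.82. The resting Naive arrays lay at 4.49, 4.33 and 4.38 and at 4.33, 4.25 and 4.34, below all of these. Ccr4 was at least 1.04-fold higher in stimulated than in resting Naive cells of WT (means 4.92 and 4.40, adjusted p = 0.00521) and at least 1.12-fold in BAF180-deficient cells (4.97 and 4.31, adjusted p = 0.000666). The WT call was lost when each array was Z-score normalized instead (adjusted p = 0.0804). In resting Th2 cells it was at least 1.10-fold higher than in resting Naive cells of WT (5.0 and 4.40, adjusted p = 0.00232). For BAF180-deficient cells the means were 4.74 and 4.31 (adjusted p = 0.0210), with no fold because the bound was under 1, and that call was lost without replicate B of resting Naive cells or without replicate A or C of resting Th2 cells (adjusted p from 0.0568 to 0.0745).

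After restimulation Ccr4 was detected on no array of WT Th2 cells (4.49, 4.67 and 4.55) and on 2 of 3 arrays of BAF180-deficient Th2 cells (4.74, 4.85 and 4.45). The WT fall was at least 1.27-fold (means 5.0 and 4.57, adjusted p = 0.0262), lost without replicate C of resting Th2 cells (adjusted p = 0.119) and without replicate A (0.0897) or C (0.0656) of stimulated Th2 cells. In BAF180-deficient cells the difference was -0.06 (95% interval -0.36 to 0.23). Neighbours in the order of Ccr4 levels overlapped, except WT stimulated Th2 and WT resting Naive cells, which came within rounding of each other at 4.49. BAF180-deficient replicate C of stimulated Th2 cells, at 4.45, lay within the range of WT resting Naive cells.

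Ccr2, the receptor for Ccl2, is a receptor of monocytes and of memory T cells. Its probe was detected on none of the 24 arrays, with levels between 4.15 and 4.35, so it entered no test. This held also in resting Naive cells, where the summed level of the 7 detected myeloid markers was 2960, 2660 and 11200 in WT and 3880, 5160 and 6160 in BAF180-deficient cells, against 140 to 204 in all other states.

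**Figure D3:**
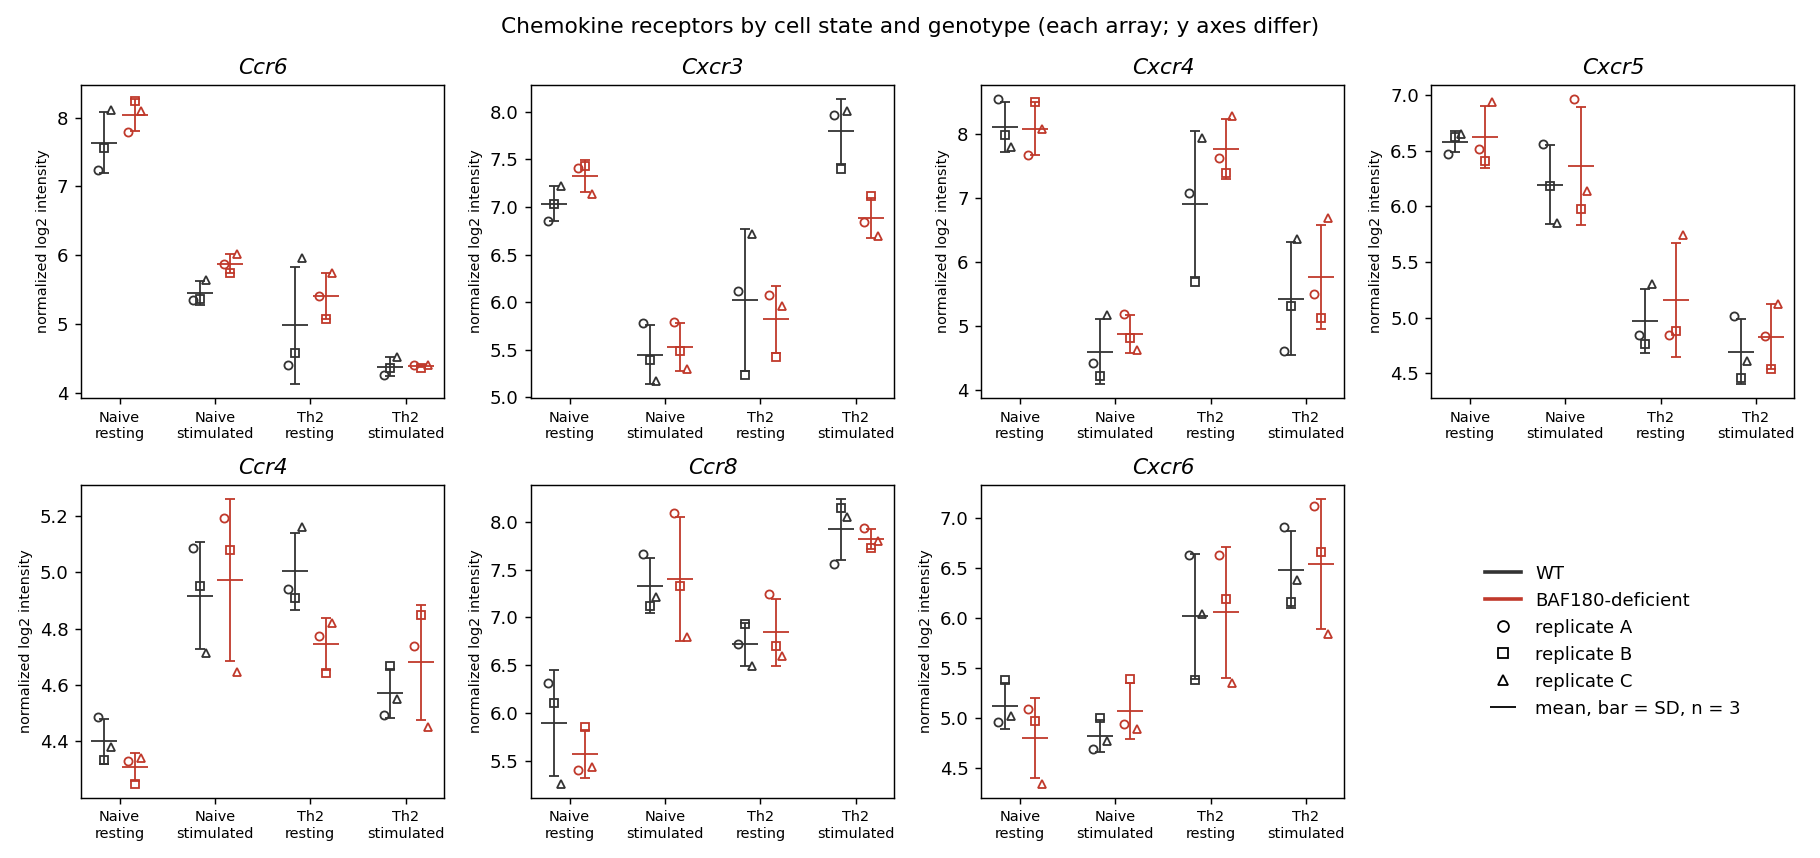
Normalized log2 intensity (y axes, which differ between panels) of 7 receptors by cell state (x axes) on each array, WT in black and BAF180-deficient in red, with replicates A, B and C as circles, squares and triangles and mean ± SD (n = 3). Ccr6 falls from 7.64 in WT resting Naive to 4.38 in WT stimulated Th2 cells, Cxcr3 is lowest in stimulated Naive cells and rises to 7.79 in WT stimulated Th2 cells, and Ccr8 rises from 5.89 to 7.92.

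The 2 kinds of stimulation were set against each other in one test, the change upon restimulation of Th2 cells minus the change upon activation of Naive cells. This test was chosen after the values were seen, and the stimuli (24 h of antibodies against 1.5 h of PMA and ionomycin) differ as well as the cells. The changes of Cxcr3 had opposite signs and differed by 3.36 in WT (SE 0.39, adjusted p = 1.80e-06) and 2.86 in BAF180-deficient cells (SE 0.39, adjusted p = 1.44e-05). In WT 3 members had a higher difference, with Ccr6 at 1.58 (adjusted p = 0.00619) and Cxcr4 at 2.03 (adjusted p = 0.0378) beside Cxcr3, and 1 a lower one, Ccr4 at -0.95 (adjusted p = 0.00129). In BAF180-deficient cells Ccr6 at 1.14 (adjusted p = 0.0426) and Cxcr3 were higher, and Ccr4 at -0.73 (adjusted p = 0.00955) and the second probe of Cxcr5 at -1.11 (adjusted p = 0.0485) lower. Over all probes 25% were called in WT and 26.4% in BAF180-deficient cells. Ccr6 was detected on no array of stimulated Th2 cells, and Ccr4 on none of resting Naive or WT stimulated Th2 cells, so that their differences rest on levels at background and are not exact. The call of Cxcr4 in WT was lost in 8 of 12 fits that left out 1 array and that of Ccr6 in BAF180-deficient cells in 10 of 12, with adjusted p up to 0.120 and 0.110. Z-score normalization (adjusted p = 0.0836 and 0.0507) and leaving out the detection filter (0.0925 and 0.0867) also ended both calls, and the Cxcr4 call was lost with an offset of 50 (0.0549) and when only the groups compared were fitted (0.0757). Ccr8 rose under both stimulations, and its 2 changes differed by -0.23 in WT (95% interval -1.09 to 0.62) and -0.86 in BAF180-deficient cells (-1.72 to -0.01, adjusted p = 0.129, and 0.0287 with Z-score normalization).

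Between the genotypes no member met the 4 criteria in any state. Over all probes 0.681% met them in resting Naive, 0.112% in stimulated Naive, 0.0842% in resting Th2 and 0.0913% in stimulated Th2 cells. The share was thus highest in resting Naive cells, whereas the study, with its own Z-score values, reported more changed genes in differentiated than in Naive cells. At an unadjusted limma p below 0.05 there was 1 member in resting Naive cells (Ccr6, second probe only), 0 in stimulated Naive and resting Th2 cells and 1 in stimulated Th2 cells (Cxcr3), against 973, 321, 489 and 397 of all probes in this order. These 2 members also met the criteria without the FDR, as did 5.65% of all probes in resting Naive, 2.1% in stimulated Naive, 3.07% in resting Th2 and 2.61% in stimulated Th2 cells. The 6 values of a comparison did not overlap between genotypes for 0 members in resting Naive cells (7.99% of all probes), 1 in stimulated Naive cells (Ccr6, against 6.46%), 1 in resting Th2 cells (Ccr4, against 10.1%) and 1 in stimulated Th2 cells (Cxcr3, against 7.31%). With 3 arrays against 3 an exact permutation test cannot give a p below 0.1.

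Cxcr3 had the largest genotype difference of the 7 members. In stimulated Th2 cells it was 1.88-fold lower in BAF180-deficient cells, -0.91 (SE 0.28, 95% interval -1.48 to -0.33), with an unadjusted limma p of 0.00354 and an adjusted p of 1.00, or 0.830 with the letter as a block. By letter the differences were -1.13, -0.29 and -1.31. The highest BAF180-deficient array, at 7.12, lay below the lowest WT array, at 7.40. In the other states the difference was 0.29 in resting Naive, 0.08 in stimulated Naive and -0.20 in resting Th2 cells, with overlap. The change upon restimulation differed between genotypes by -0.71 (95% interval -1.52 to 0.10, unadjusted p = 0.0846), which did not pass. Cd8b1, a marker of CD8 T cells, was also detected on every array of stimulated Th2 cells. Its linear level there was 165, 185 and 357 in WT and 101, 87 and 291 in BAF180-deficient cells. It was lower in BAF180-deficient cells at each letter in the other states too. The part of CD8 T cells in the Cxcr3 difference was not tested.

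Ccr6 was higher in BAF180-deficient cells by 0.40 in resting Naive, 0.43 in stimulated Naive and 0.43 in resting Th2 cells, each with an interval that included 0, and its probe was not detected in stimulated Th2 cells. The second probe gave 0.80 in resting Naive (unadjusted p = 0.0121, adjusted p = 0.572), 0.59 in stimulated Naive (unadjusted p = 0.0564) and 0.04 in resting Th2 cells. The second probe met the 4 criteria in resting Naive cells when BAF180-deficient replicate A or WT replicate C was left out. The brightest probe met them in resting Naive cells without replicate C of every group (0.61, adjusted p = 0.255). In resting Th2 cells it met them without WT replicate C (0.92, adjusted p = 0.195). Cxcr4 in resting Th2 cells was 0.86 higher in BAF180-deficient cells (95% interval -0.17 to 1.89), with 0.54, 1.71 and 0.35 by letter, and WT replicate B, at 5.69, was the lowest of the 6 arrays. Ccr4 in resting Th2 cells was lower in BAF180-deficient cells without overlap (-0.26, 95% interval -0.55 to 0.04). The differences of Ccr8, Cxcr5 and Cxcr6 lay between -0.33 and 0.25 in all 4 states on their brightest probes. No member passed a test of whether its change between states differed between the genotypes, for the step from resting Naive to stimulated Naive cells (0.00702% of all probes), from resting Naive to resting Th2 cells (0.00702%) or from resting to stimulated Th2 cells (0%). In each of these 3 tests 0 members also had an unadjusted limma p below 0.05, against 329, 387 and 257 of all probes.

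**Figure D4:**
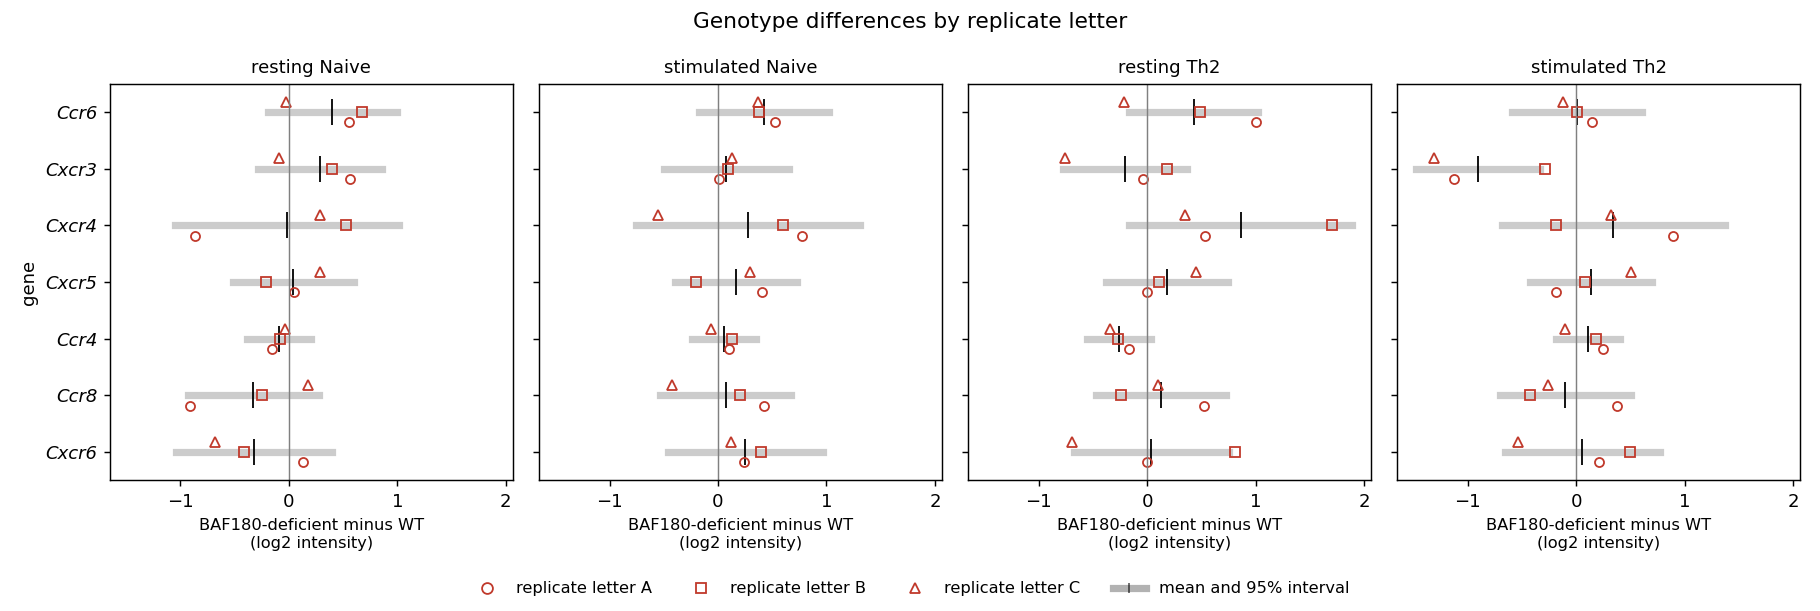
BAF180-deficient minus WT log2 intensity (x axes) of 7 receptors (y axis) in the 4 cell states, by replicate letter (circle A, square B, triangle C), with the mean as a tick and its 95% limma interval as a grey bar. The interval lies wholly below 0 for Cxcr3 in stimulated Th2 cells (-1.48 to -0.33) and includes 0 for each other receptor and state drawn.

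Other genes of the same pathway were taken from lists of further chemokine receptors, of other receptors that direct migration, of the members' ligands and of intracellular signalling. Of 15 other chemokine receptors 9 were detected. Naive activation lowered 4 of them in WT, and 3 were lower in resting Th2 than in resting Naive cells. Ccrl2, an atypical receptor of myeloid cells, fell by 2.31 on activation, and resting Th2 cells differed from resting Naive cells by -2.54. Cx3cr1, the fractalkine receptor, was at least 1.20-fold lower after activation. The summed level of the myeloid markers was also far lower in these comparisons, and its part in Ccrl2 and Cx3cr1 was not tested. Ccr7, which takes Naive cells into lymph nodes, was lower in resting Th2 than in resting Naive cells (-1.36, adjusted p = 0.00937). Its WT levels were 7.45, 7.44 and 6.24 in resting Naive and 5.39, 5.65 and 6.00 in resting Th2 cells. No gene of this list met the criteria between genotypes.

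Of 5 other migration receptors 4 were on the array and 3 were detected. Ltb4r1, the leukotriene B4 receptor, lay at 5.62, 4.95 and 6.05 in WT resting Naive, 8.81, 9.24 and 9.36 in resting Th2 and 6.59, 6.97 and 7.46 in stimulated Th2 cells. It fell by 0.94 on Naive activation, rose by 3.60 (adjusted p = 1.70e-08) from resting Naive to resting Th2 cells and fell by 2.13 (adjusted p = 2.18e-05) on restimulation. Gpr183, the oxysterol receptor that places cells at the follicle border, differed by -1.52, -1.96 and -0.77 in the same comparisons. None of the 3 differed between genotypes by the criteria.

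Of the 14 ligands of the members 9 were detected. Ccl1, the ligand of Ccr8, was detected on no array of resting Naive and resting Th2 cells. Restimulated Th2 cells held it at 11.32, 10.57 and 10.91 in WT and 10.70, 10.13 and 9.07 in BAF180-deficient cells, at least 80.6-fold (adjusted p = 9.29e-12) and at least 42.0-fold (adjusted p = 1.19e-10) above resting Th2 cells. After activation of Naive cells Ccl1 was at least 2.47-fold higher in WT. Ccl17, a ligand of Ccr4, was at least 1.21-fold higher after activation of WT Naive cells. These were the 2 ligands that rose there, and 0 fell in WT. In WT resting Th2 cells 0 ligands were higher and 3 lower than in resting Naive cells, among them Cxcl9, a ligand of Cxcr3, at least 2.89-fold lower (adjusted p = 6.78e-07), and Cxcl16, the ligand of Cxcr6, at -1.45 (adjusted p = 0.000590). The summed level of the myeloid markers was 2660 to 11200 in WT resting Naive and 140 to 183 in WT resting Th2 cells. The part of myeloid cells in these falls was not tested. Cxcl13, the ligand of Cxcr5 made by follicular stromal cells, was the only gene of these lists called between genotypes. In resting Naive cells it was 4.93, 5.86 and 4.63 in BAF180-deficient cells, detected on 2 of 3 arrays, and was not detected in WT, at least 1.21-fold higher (adjusted p = 0.110, under the FDR limit of the methods).

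Of 31 genes of receptor signalling 30 were on the array and 27 detected. Naive activation of WT cells raised 3 and lowered 19 of them, resting Th2 cells had 3 higher and 10 lower than resting Naive cells, and restimulation of Th2 cells raised 4 and lowered 16. The median differences were -0.76, -0.17 and -0.58, against 0.01, 0.03 and -0.00 over all probes. Rgs16, which shortens G protein signals, rose by 1.94 on Naive activation and by 5.67 (adjusted p = 8.22e-09) on Th2 restimulation, and Rgs1, of the same family, rose by 1.95 on restimulation and differed by -2.28 between resting Th2 and resting Naive cells. Arrb2, an arrestin that uncouples activated receptors, differed by -1.99 on Naive activation. Prex1, a Rac exchange factor, differed by -2.21 on activation and -1.94 in resting Th2 cells. Grk6, a receptor kinase, and Coro1a, an actin regulator, fell by 2.00 and 2.09 on Th2 restimulation. Gng2, a G protein gamma subunit, was higher by 0.89 after activation and by 1.92 in resting Th2 cells, and Plcb3, a phospholipase C, was at least 1.55-fold higher in resting Th2 cells. No gene of this list met the criteria between genotypes.

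The genes whose mean levels over the 8 groups were most like those of each receptor, by Pearson's r among 10417 genes, are given as a description. They were Sidt1 (0.993) and Ltk (0.993) for Ccr6, Akr1a1 (0.992) and Grn (0.990) for Cxcr4, and Ogdh (0.996) and Cd86 (0.995) for Cxcr5. For Cxcr3 they were Rrad (0.972) and Slc6a19 (0.960), for Cxcr6 Mt1 (0.984) and Cyp11a1 (0.981), for Ccr8 Sec13 (0.997) and Ndufaf1 (0.996), and for Ccr4 Ncapg2 (0.983) and Hmgcs1 (0.980). The 8 means share the normalization and the cell states, so that any gene set by state alone can reach such values.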

How the data were processed

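Gene expression was measured in 8 groups of 3 arrays. The authors hybridized biotin-labelled cRNA and deposited the probe intensity from GenomeStudio (version 1.6.0 in the submitters' processing notes, another version in the methods), without normalization or background subtraction, for 25697 probes. A detection p-value beside each intensity was deposited as well. The Z-score values of the methods were not used here. The neqc function (limma 3.58.1, R 4.3.3) corrected background through the detection p-values, added 16, quantile normalized and took log2. Probes undetected on every array (detection p above 0.02) were left out, which left 14246 probes of 10418 genes. A model with 8 group means was fitted to 24 arrays (lmFit, eBayes), with 16 residual degrees of freedom (20.3 moderated), and p-values were Benjamini-Hochberg adjusted over all kept probes. Genotype calls needed a Z-ratio (difference over the SD of all differences) beyond 1.5, unadjusted p under 0.05, FDR under 0.3 and a positive mean signal, while calls between states and of differences in change needed an adjusted p below 0.05. On the log2 scale 1.5 corresponded to 0.36 in resting Naive, 0.28 in stimulated Naive, 0.31 in resting Th2 and 0.28 in stimulated Th2 cells. The method was tested on simulated data. A gene was called when a kept probe was, and its values are those of its brightest kept probe.

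Between 8047 and 10689 probes were detected per array, and the number of arrays limits the precision. Replicate arrays correlated at 0.949 to 0.989, with no more than 0.973% equal intensities in any pair. The methods speak of pairs of RNA samples and the legend of the array figure of pairs of mice, without tying the letters to them. Pooled over states, same-letter WT and BAF180-deficient arrays deviated together (pooled r of 0.301 for A, 0.136 for B and 0.516 for C). This did not hold in every state, since the lowest r of a state was 0.047 at letter A and -0.003 at letter B. At letter C the lowest was 0.347. The letters were read as pairs on the pooled values only, and the main genotype test did not use the pairing. Values with the letter as a block are given where they change a call. For changes between states, so are values with genotype and letter as a block. The arrays came from pairs of mice by that legend, but nothing states which mouse or culture each letter stands for. The p-values measure the spread between these samples, and how much of it is technical is not known. Probes were named by Entrez ID, RefSeq accession, symbol or synonym. The members and gene lists were chosen with earlier results of these data known. Named list genes were, for each list, the 2 largest called rises and the 2 largest called falls of each WT comparison of states, and every gene called between genotypes, except that increases among other chemokine receptors are not reported here. A confidence interval is at 95%. Promoters were taken from RefSeq (GRCm38.p6). Python 3.11.15 and matplotlib 3.10.9 were used.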

Additional observations from a re-analysis of the deposited data

Results flagged for a closer look

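On their brightest probes the change of 4 receptors differed between the 2 kinds of stimulation, Th2 restimulation minus Naive activation. The test was of the difference itself and was chosen after the values were seen. Over all probes 25% were called in WT and 26.4% in BAF180-deficient cells. In WT cells the differences were 3.36 for Cxcr3, 2.03 for Cxcr4, 1.58 for Ccr6 and -0.95 for Ccr4 on the log2 scale. In BAF180-deficient cells they were 2.86 for Cxcr3, 1.14 for Ccr6 and -0.729 for Ccr4. The second probe of Cxcr5 was also called there, at -1.11, while its brightest probe was not. The values of Ccr6 and Ccr4 are not exact, because Ccr6 was detected on no array of stimulated Th2 cells and Ccr4 on none of resting Naive or WT stimulated Th2 cells. The call of Cxcr4 in WT was lost in 8 of 12 fits without 1 array, and that of Ccr6 in BAF180-deficient cells in 10 of 12. Stimulus and time differ between the 2 experiments, and their part cannot be told apart from that of the cell state.

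The same-letter genotype differences of Cxcr3 had opposite signs in the 2 stimulated states, although neither state was called. All 3 same-letter differences were above 0 in stimulated Naive cells, at 0.01, 0.09 and 0.13. Their mean was 0.0779 (95% interval -0.50 to 0.65), with overlapping groups. All 3 were below 0 in stimulated Th2 cells, with a mean of -0.908. The difference between these 2 states was not tested. Other members also had all 3 same-letter differences of their brightest probe on the same side of 0 in a state. They were above 0 for Ccr6 and Cxcr6 in stimulated Naive and for Cxcr4 in resting Th2 cells. They were below 0 for Ccr4 in resting Naive and resting Th2 cells. The share of all probes with such agreement of signs was not counted, so these signs are only a description.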

How the results depend on the processing

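Each of the 333 repeats of a called difference under another normalization, offset, filter, set of arrays, replicate block or call rule kept its direction, and 301 kept the call. Of these settings only the normalization and the offset can change a difference. The filter, the set of arrays, the replicate block and the call rule leave it as it was, so its direction was fixed there. Where 1 array was left out, or replicate C of every group, all 301 repeats kept the direction and 255 the call. Ccr4 was detected on no array of resting Naive and WT stimulated Th2 cells and Ccr6 on none of stimulated Th2 cells, so their levels there are bounds. The number of called members in WT resting Th2 against resting Naive cells fell from 6 to 3 when only the arrays compared were fitted and to 2 under the 4 criteria, and that in BAF180-deficient stimulated against resting Th2 cells from 4 to 2 under the 4 criteria. Without the FDR, 1 member met the criteria between genotypes in resting Naive cells (Ccr6, second probe only, with 5.65% of all probes) and 1 in stimulated Th2 cells (Cxcr3, with 2.61%). Leaving out 1 array, the genotype count ranged from 0 to 1 in resting Naive and resting Th2 cells and stayed 0 in the others, stimulated against resting Naive cells gave 5, resting Th2 against resting Naive cells 4 to 6 in both genotypes, and stimulated against resting Th2 cells 2 to 4 in WT and 2 to 5 in BAF180-deficient cells. With the replicate block of the letter, the genotype counts and the genotype differences of change were 0, the counts for Naive activation 5 and 5, for resting Th2 against resting Naive cells 7 in WT and 6 in BAF180-deficient cells, and for Th2 restimulation 4 and 5. With the replicate block of genotype and letter the last 2 were 5 and 5. Beyond the changes given with the results the block changed no call. The cause of these changes was not tested.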
